A study of Mus musculus with 6 samples.

Results

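The miR-532, miR-500 and miR-362 cluster is a run of microRNA (miRNA) hairpins in the mouse Clcn5 gene on chromosome X, of which 5 were followed here. Its members were chosen by name and position, as 8 mature arms: mmu-miR-532-5p, mmu-miR-532-3p, mmu-miR-500-3p, mmu-miR-501-3p, mmu-miR-362-5p, mmu-miR-362-3p, mmu-miR-188-5p and mmu-miR-660-5p. Of these 8 arms, 7 could be followed among the 1966 mature miRNAs of the table, and mmu-miR-660-5p and its hairpin were not analysed here. The other arms of the same hairpins, miR-501-5p, miR-500-5p and miR-188-3p, are given beside them, since they are needed for the ratio of the arms.

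The cluster was measured in small RNA libraries made from extracellular vesicles (EVs), the small membrane particles, exosomes among them, that cells release. There were 3 libraries from colon EVs and 3 from EVs of bone marrow–derived dendritic cells (BMDCs), and all 6 came from animals of the Rab27A fl/fl strain, in which the gene for a GTPase of exosome secretion is flanked by loxP sites; the labels name no Cre. Colon EVs were collected from colon explants kept in culture for 16 hours, a mixture of epithelial, immune and stromal cells, and fraction 2 of an iodixanol gradient was sequenced. BMDC EVs came from marrow cells differentiated for 7 days with GM-CSF, and the cell source and the culture cannot be told apart. The labels give the gradient to the colon preparations only. The methods of the study also name it for colonic EVs, and give ultracentrifugation for the vesicles of BMDCs. Its results section describes the gradient for both sources, so whether the purification also differed is not settled. The labels do not say whether the libraries of a source were separate animals or cultures, so the p-values measure the spread between these preparations, which may be technical.

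A miRNA hairpin is cut from a longer primary transcript by Drosha and then by Dicer, which leaves a short duplex. Usually 1 strand of the duplex, the 5p or the 3p arm, is kept by an Argonaute protein, and bases 2 to 8 of that strand, the seed, pair with target messenger RNAs. Hairpins that lie close together in an intron can be cut from the same primary transcript, and their mature arms can still accumulate to different levels. Clcn5, the host gene, encodes a chloride and proton exchanger of endosomes.

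In GRCm38, Clcn5 lies on the minus strand of chromosome X from 7153810 to 7319358. In the direction of transcription the 5 hairpins follow as Mir532 (7248402 to 7248497), Mir188 (7247989 to 7248056), Mir362 (7241982 to 7242046), Mir501 (7241243 to 7241351) and Mir500 (7237683 to 7237774). All 5 lie in the same intron, from 7213011 to 7316658, of the 3 annotated Clcn5 transcripts that span them, and none overlaps an exon of those transcripts. These 5 hairpins cover 10815 bp in all. Mir532 and Mir188 are 345 bp apart and Mir362 and Mir501 are 630 bp apart, while 5942 bp separate Mir188 from Mir362 and 3468 bp separate Mir501 from Mir500.

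The mature sequences available from RefSeq (GRCm38.p6) matched 6 of the 8 members and the 3 other arms. They are shown with the seed in capitals, because the seeds group the arms of separate hairpins.
miR-501-3p: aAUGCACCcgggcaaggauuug
miR-500-3p: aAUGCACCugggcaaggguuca
miR-362-5p: aAUCCUUGgaaccuaggugugaau
miR-500-5p: aAUCCUUGcuaucugggugcuuagu
miR-501-5p: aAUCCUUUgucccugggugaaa
miR-188-5p: cAUCCCUUgcaugguggaggg
miR-532-3p: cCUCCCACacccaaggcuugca
miR-188-3p: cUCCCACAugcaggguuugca
miR-362-3p: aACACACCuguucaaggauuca

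The 3p arms of miR-500 and miR-501 had the same seed and were identical at 18 of 22 positions. Counted from the 5′ end, with the miR-500-3p base first, they differed by U9C, G18A, C21U and A22G. The 5p arms of miR-362 and miR-500 also had a seed in common. Among the tested miRNAs with a sequence in this reference, none outside the cluster had the seed of any of these arms. No sequence was available for miR-532-5p, so its seed was not compared. Since miR-500-3p and miR-501-3p differ at so few positions, how reads were split between them is uncertain.

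The depth was modest, at 173358 to 645303 counts for colon EVs and 83997 to 178454 for BMDC EVs. A limit of 3 counts was taken for a count of 0. In single libraries it stood for 4.65 to 35.7 CPM, that is, counts scaled to a library total of 1000000. Over the pooled libraries it stood for 2.85 CPM in colon EVs and 7.71 CPM in BMDC EVs. The two-sided 95% Poisson interval of 0 pooled counts reached higher, to 3.51 and 9.48 CPM. Marker miRNAs matched the labelled sources. These lists were drawn up after earlier results had been seen, so the match is no independent check of the labels. All 9 miRNAs of a colon epithelium list were higher in colon EVs, and all 7 of a haematopoietic and myeloid list were higher in BMDC EVs. For comparison, of all 220 miRNAs tested as described below, 89 were called higher and 80 lower in BMDC EVs. The summed epithelial markers were at 225927 to 298633 CPM in colon EVs and 3774 to 7951 CPM in BMDC EVs, and the summed haematopoietic markers at 5136 to 11901 CPM and 306619 to 323239 CPM. Of 5 smooth muscle and mesenchyme miRNAs, 2 could be tested and both were higher in colon EVs (1342 to 2070 against 86.0 to 250.01 CPM for the summed list), and none of 3 red cell miRNAs reached the count minimum (0 to 51.9 against 58.4 to 131 CPM). The part of these markers in the differences described below was not tested.

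Of the 7 members, 3 had enough counts to be tested, and all 3 were higher in BMDC EVs. mmu-miR-532-5p was the most abundant, followed by mmu-miR-501-3p and mmu-miR-532-3p. The test was edgeR's quasi-likelihood test over the 220 miRNAs that reached a minimum of 10 counts in 3 or more libraries, with Benjamini-Hochberg adjustment. Normalized counts are counts scaled by the trimmed mean of M values (TMM) to a common library size. In a bulk EV preparation, fewer vesicles of a kind and less miRNA in each vesicle cannot be told apart.

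mmu-miR-532-5p had normalized counts of 60.1, 42.4 and 50.5 in the colon EV libraries and 197, 204 and 218 in the BMDC EV libraries. Every BMDC EV library was above every colon EV library, and the means were 51.0 ± 8.89 and 206 ± 11.1 (SD, n = 3). The level was 4.01-fold higher in BMDC EVs (95% interval 2.72 to 5.89, log2 fold change 2.00, SE 0.284, edgeR adjusted p = 4.02e-06). In deposited counts these were 158, 44.5 and 42 against 158.5, 106.5 and 226.5.

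mmu-miR-501-3p, which carries the seed also found in miR-500-3p, was at 18.6, 26.7 and 24.1 normalized counts in colon EVs and at 160, 143 and 136 in BMDC EVs. The groups lay far apart relative to their spread, with means of 23.1 ± 4.09 and 146 ± 12.5 (SD, n = 3). This was the largest fold difference of the 3 tested members, at 6.39-fold (95% interval 4.06 to 10.1, log2 fold change 2.68, SE 0.334, edgeR adjusted p = 8.52e-07).

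mmu-miR-532-3p, the less abundant arm of its hairpin, was at 5.71, 14.3 and 7.22 normalized counts in colon EVs and at 45.1, 23.0 and 55.4 in BMDC EVs. The groups did not overlap, although relative to the mean the libraries of each source differed more among themselves than for the other tested members (9.07 ± 4.57 and 41.1 ± 16.5, SD, n = 3). It was 4.77-fold higher in BMDC EVs (95% interval 2.41 to 9.43, log2 fold change 2.25, SE 0.501, edgeR adjusted p = 0.000481). Its deposited counts were only 15, 15 and 6 in colon EVs and 36.33, 12 and 57.39 in BMDC EVs.

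**Figure D1:**
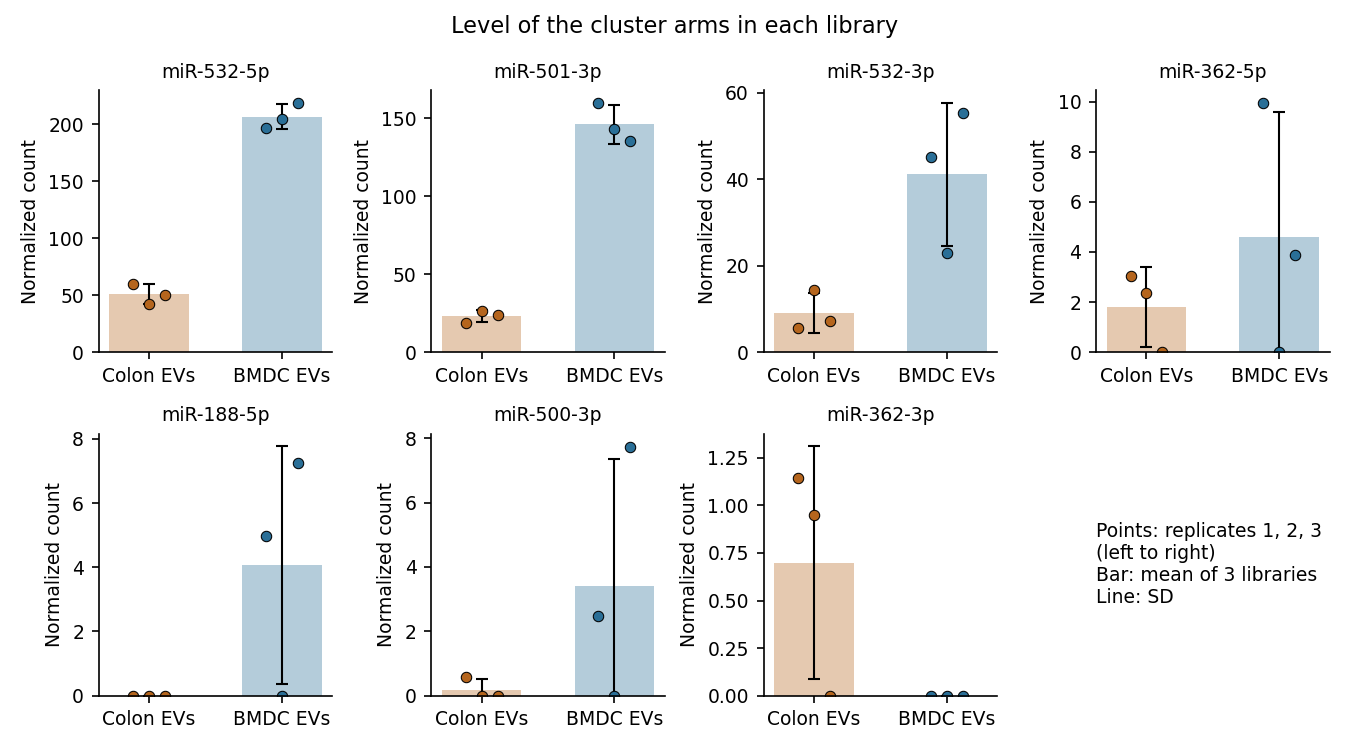
Normalized counts (vertical axes, TMM-scaled, each panel on its own scale from 0) of the 7 members in each EV library (points), with the mean (bars) and SD (lines) of the 3 libraries per source. Every BMDC EV library lies above every colon EV library for miR-532-5p, miR-501-3p and miR-532-3p but not for the 4 members under the count minimum, with miR-532-5p at 197 to 218 against 42.4 to 60.1.

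These 3 members have to be read against a wide difference between the sources. Across all 220 tested miRNAs, 40.5% were called higher in BMDC EVs, and in 42.7% every BMDC EV library was above every colon EV library. The median log2 fold change was 0.19 over all tested miRNAs and 2.25 over the 3 members, and among 18 tested miRNAs elsewhere on chromosome X it was 1.43, with 10 called higher in BMDC EVs and 3 lower. Ranked by log2 fold change toward BMDC EVs, miR-501-3p stood at 51, miR-532-3p at 59 and miR-532-5p at 66 of 220. By level they stood at 69, 130 and 61 in BMDC EVs and at 150, 178 and 119 in colon EVs.

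The other 4 members were close to the limit of detection, with no more than 8 counts in any library, and were below the count minimum. mmu-miR-188-5p, the 5p arm of the hairpin next to Mir532, had 0 counts in the 3 colon EV libraries and 4, 0 and 7.5 in the BMDC EV libraries. Pooled over the libraries it was at 29.5 CPM in BMDC EVs (95% Poisson interval 15.0 to 52.2, counting error only) and at 0 in colon EVs, where 3 counts over the group correspond to 2.85 CPM. Set against that floor, the pooled BMDC EV level was 10.4-fold higher, or 5.26-fold higher when the lower end of its own interval was used. Both values leave out the spread between libraries, and 1 of the BMDC EV libraries had no count. They are therefore no lower limit for the source. When all 771 miRNAs that an unfiltered edgeR fit could use were tested, miR-188-5p was called (adjusted p = 0.0230) against 15.2% of miRNAs called higher in BMDC EVs there. It entered that fit only through its BMDC EV counts of 4 and 7.5, so the call is no independent support for a difference.

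mmu-miR-500-3p was detected with 1.5, 0 and 0 counts in colon EVs and 2, 0 and 8 in BMDC EVs. mmu-miR-362-5p had 8, 2.5 and 0 counts in colon EVs and 8, 0 and 4 in BMDC EVs, or 9.99 CPM (95% Poisson interval 4.89 to 18.1) and 30.8 CPM (15.9 to 53.9) when pooled. Its libraries overlapped between the sources. mmu-miR-362-3p was the only member seen in colon EVs alone, with 3, 1 and 0 counts against 0 in every BMDC EV library. At the BMDC depth the limit of 3 counts stands for 7.71 CPM, above the 3.80 CPM of the pooled colon libraries. In the unfiltered edgeR fit the adjusted p was 0.234 for miR-500-3p, 0.574 for miR-362-5p and 0.281 for miR-362-3p, so no difference was detectable for these 3 arms at this depth.

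**Figure D2:**
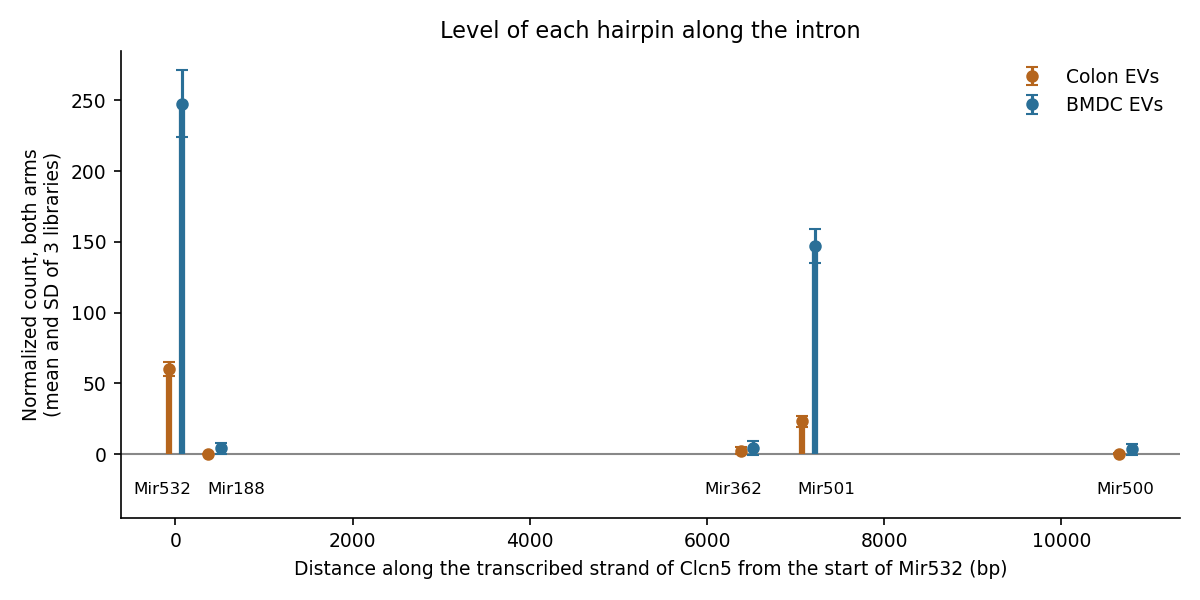
Summed normalized counts of both arms of each hairpin (vertical axis, mean and SD of 3 libraries per source) against its distance in bp from the start of Mir532 along the transcribed strand of Clcn5. Mir532 and Mir501, 7146 bp apart, carry nearly all of the counts in both sources, and the hairpin next to each of them, Mir188 and Mir362, is near 0.

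Among the 5 hairpins followed here, counts did not rise or fall steadily along the intron. Whether counts of unlike sequences measure abundance alike was not tested. Summed over both arms, Mir532 was at 60.1 ± 5.02 normalized counts in colon EVs and 248 ± 23.8 in BMDC EVs (SD, n = 3), while Mir188, whose start lies 441 bp downstream, was at 0 and 4.23 ± 3.91. Mir501 was at 23.1 ± 4.09 and 147 ± 12.01. Mir362, upstream of Mir501, was at 2.51 ± 2.21 and 4.59 ± 5.003, and Mir500, the most downstream of the 5, at 0.190 ± 0.330 and 3.40 ± 3.94. The SDs of Mir188, Mir362 and Mir500 were about as large as their BMDC EV means, so the order of these 3 could not be told.

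Taking the 7 arms as a sum, the cluster made up 363, 391 and 392 CPM of the colon EV libraries and 2663, 2298 and 2487 CPM of the BMDC EV libraries. The sums varied little within a source, at 382 ± 16.3 and 2483 ± 183 CPM (SD, n = 3), and the ratio was 6.49. With TMM scaling the sums were 85.9 ± 3.77 and 406 ± 31.1 normalized counts, and the ratio was 4.72. TMM set the effective sizes of the BMDC EV libraries above their own totals and those of the colon EV libraries below theirs. The 3 tested arms held 96.9% ± 2.75 of the sum in colon EVs and 97.2% ± 2.47 in BMDC EVs.

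**Figure D3:**
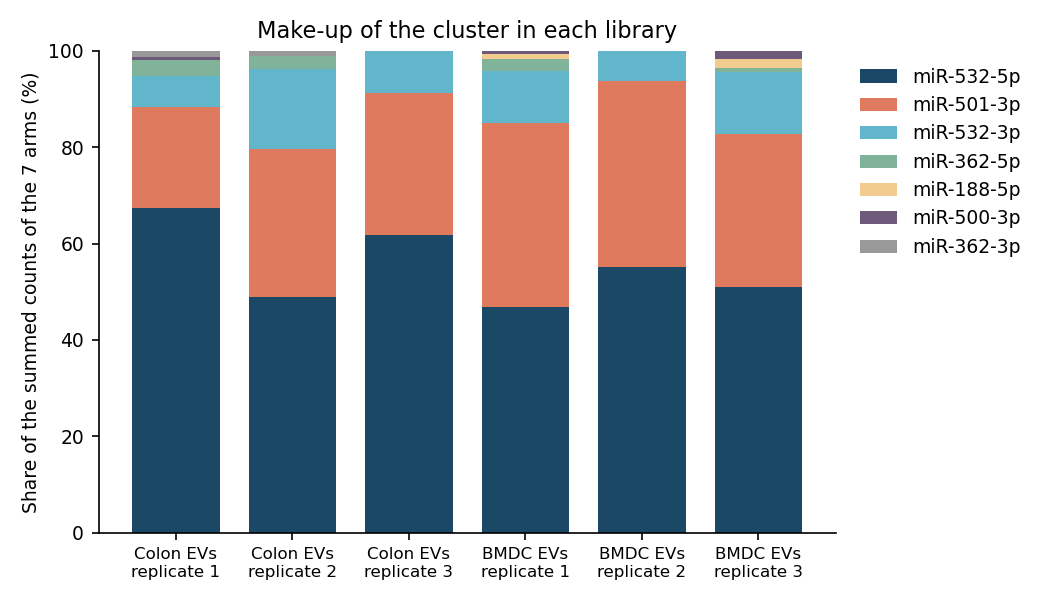
Share of the summed cluster counts (vertical axis, percent) held by each member in each of the 6 EV libraries (horizontal axis). miR-532-5p holds the largest share in every library, and miR-501-3p holds 20.9% to 30.8% in colon EVs and 31.7% to 38.6% in BMDC EVs.

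Within the sum, miR-532-5p took 59.3% ± 9.47 in colon EVs and 51.0% ± 4.12 in BMDC EVs (SD, n = 3). The share of miR-501-3p was 27.0% ± 5.35 in colon EVs and 36.1% ± 3.89 in BMDC EVs. Its highest colon EV library, at 30.8%, was just below its lowest BMDC EV library, at 31.7%, and the difference in share was not tested. miR-532-3p took 10.6% ± 5.26 and 9.97% ± 3.42. These shares add up to a whole and cannot move independently.

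The arm ratio could be followed in the miR-532 hairpin, the only one with both arms above the count minimum. The ratio of 3p to 5p counts was 0.0949, 0.337 and 0.143 in the colon EV libraries and 0.229, 0.113 and 0.253 in the BMDC EV libraries. The 5p arm was thus the more abundant in all 6 libraries, and the ratios of the sources overlapped. The 3p arm held 15.5% ± 8.66 of the hairpin's counts in colon EVs and 16.3% ± 5.43 in BMDC EVs (SD, n = 3). The log2 ratio differed by 0.14 between the sources (exact permutation test, two-sided, p = 0.9, where 0.1 is the smallest p that 3 against 3 libraries allow).

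Arm usage was also modelled over 38 hairpins. edgeR's diffSpliceDGE compared each arm with its whole hairpin and called 6.58% of 76 arms, in 5 hairpins. miR-532-3p differed from its hairpin by 0.22 on the log2 scale (edgeR adjusted p = 0.996) and miR-532-5p by -0.03 (edgeR adjusted p = 0.996). The hairpin includes the arm itself, so miR-532-5p, with most of the counts, was set largely against itself. Each arm called was the less abundant of its hairpin, so the share called is low partly because abundant arms could hardly be called. The fold changes of the arms themselves differed by 0.25 on the log2 scale, with a 95% interval of -0.88 to 1.38 when their errors were taken as independent. Under that assumption, differences between the arms from -0.88 to 1.38 on the log2 scale lie within the error. The spread of the ratios within libraries did not enter this interval.

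In the other hairpins at least 1 arm was below the count minimum. The 5p arm of miR-501 had 0 of 97 counts in colon EVs, where the limit of 3 counts stands for a share of 3.09%. It had 2.5 of 346.33 counts in BMDC EVs, a share of 0.722% (95% exact binomial interval on rounded counts 0.0701 to 2.07, counting error only). In the EVs of both sources nearly all counts assigned to Mir501 were thus of the 3p arm, with the split from miR-500-3p uncertain. This hairpin is shown 5′ to 3′ (GRCm38.p6, chrX:7241243-7241351, minus strand) with the 5p and then the 3p arm in capitals, to place the abundant arm in its precursor.
Mir501: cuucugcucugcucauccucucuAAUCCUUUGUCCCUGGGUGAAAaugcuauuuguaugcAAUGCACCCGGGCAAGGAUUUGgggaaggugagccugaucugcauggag

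miR-500-5p was at 0 in all 6 libraries, and miR-188-3p had 0.5 counts in 1 BMDC EV library. For miR-362 the 3p arm had 4 counts beside 10.5 of the 5p arm in colon EVs, and 0 beside 12 in BMDC EVs. Several libraries had no count of either arm of miR-188 or miR-362, and miR-501-5p was at 0 in 4 of 6 libraries, so the arm ratios of these hairpins were not compared between the sources.

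Whether the members changed together was measured by setting each against the others. The ratio of miR-501-3p to miR-532-5p was 0.310, 0.629 and 0.476 in colon EVs and 0.813, 0.700 and 0.620 in BMDC EVs. The means were 0.472 ± 0.160 and 0.711 ± 0.0968 (SD, n = 3), and the highest colon EV library was just above the lowest BMDC EV library (exact permutation test on the log2 ratio, two-sided, p = 0.2). The log2 fold changes of miR-501-3p and miR-532-5p differed by 0.67 (95% interval -0.19 to 1.53), and those of miR-501-3p and miR-532-3p by 0.42 (-0.76 to 1.603). These intervals again took the errors as independent. All of them span 0, and they also leave room for differences of more than 1 on the log2 scale.

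The same question was put to tested miRNAs whose name matched a single hairpin. Hairpins that lay within 10 kb of each other on a chromosome strand were grouped. Over 44 such groups edgeR called 7.62% of 105 arms as moving apart from their own group. Many of these groups held only the 5p and 3p arms of a single hairpin and so repeat the arm usage comparison. The share called is therefore not a rate for neighbouring hairpins alone. Each group also included the arm itself, so miR-532-5p, with the largest share of the Clcn5 intron counts, was set in part against itself. In the Clcn5 intron, miR-501-3p lay 0.44 above its cluster on the log2 scale (edgeR adjusted p = 0.870), miR-532-3p lay 0.02 above it (edgeR adjusted p = 0.997) and miR-532-5p lay 0.24 below it (log2 difference -0.24, edgeR adjusted p = 0.997). None of the 3 had an unadjusted p under 0.05. The position of miR-532-3p took either sign when single libraries were left out, from -0.33 to 0.48.

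**Figure D4:**
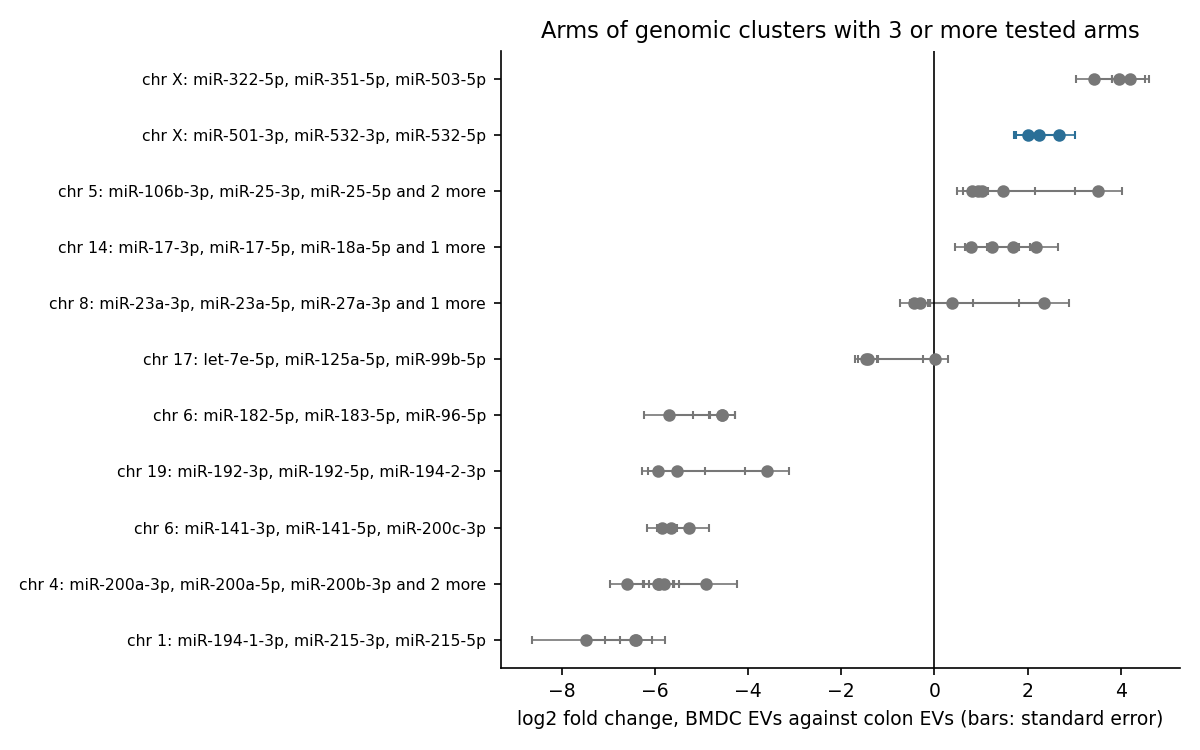
Log2 fold changes of tested arms, BMDC EVs against colon EVs (horizontal axis), in the 11 genomic clusters with at least 3 tested arms (rows), 1 point per arm and bars for its SE, with the Clcn5 intron cluster in blue. Its 3 arms lie between 2.00 and 2.68, and 1 other cluster had a smaller spread.

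The log2 fold changes of the 3 tested members had an SD of 0.341 around a mean of 2.31. In the 10 other clusters with at least 3 tested arms the SD ranged from 0.295 to 1.29, with a median of 0.643, and 1 was smaller than that of the Clcn5 intron. In 6 of those 10 clusters every tested arm was called in the same direction. With 3 arms from 2 hairpins, the spread in the Clcn5 intron is a description of these arms and was not tested against the other clusters.

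Outside the cluster, the tested miRNAs whose profile over the 6 libraries lay nearest to the mean profile of the 3 members were miR-221-3p, miR-744-5p and miR-1198-5p. Their Euclidean distances, on log2 CPM centred over the 6 libraries, were 0.390, 0.412 and 0.612, while the members themselves lay 0.593 to 0.882 from their own mean. The log2 fold changes of these miRNAs were 2.02 (SE 0.227), 2.21 (SE 0.209) and 2.38 (SE 0.472). In GRCm38, the hairpin of miR-1198 lies at 7807101 to 7807221 and that of miR-221 at 19146294 to 19146388 on chromosome X, and that of miR-744 lies on chromosome 11.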

How the data were processed

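The authors deposited 1 table of estimated counts per mature miRNA for 3 colon EV and 3 BMDC EV libraries, made with the QIAseq miRNA kit. The submitters' processing notes name STAR 2.7.6a, featureCounts 1.6.3, DESeq2 1.30.1 and GRCm38 (mm10). Of 6 values, 4 were not whole (tolerance 1e-06) for miR-532-5p, 3 for miR-501-3p and 2 for miR-532-3p, as when reads are divided between features. How molecular identifiers and multiply mapped reads were treated is not given in the sources used here. Library totals ranged from 83997 to 645303. Poisson and binomial intervals and the limits set by 3 counts cover counting error only, whereas intervals of fold changes come from edgeR's SE and include the spread between libraries.

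Counts were rounded and tested with edgeR 4.0.16 in R 4.3.3 (TMM, quasi-likelihood, a minimum of 10 counts in 3 or more libraries, Benjamini-Hochberg threshold 0.05), without a replicate block. Normalized counts are counts divided by TMM-scaled library size, times the geometric mean size. SE is the log2 fold change divided by the root of F. Arm usage and cluster usage used diffSpliceDGE. Exact permutation tests compared log2 ratios with 0.5 added to each count. They were void for the arms of miR-188, miR-362 and miR-501, where the added 0.5 sets the ratio, and are not reported. The edgeR steps were tested on simulated data. The usage differences planted there were larger than those seen for the members, so the simulation does not tell how small a difference could be found.

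The members, marker lists and tests were chosen with earlier results of these data known. The text names all members, the other arms of their hairpins, the 3 nearest miRNAs by profile, and any tested miRNA with a member's seed. Seeds were compared only where RefSeq gave a sequence. Hairpin positions and introns are from GENCODE, sequences from RefSeq. Alternatives were DESeq2 1.42.0, limma 3.58.1 with voom, other scalings and filters, a replicate block, other cluster gaps, summing miR-500-3p with miR-501-3p, and leaving out each library.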

Additional observations from a re-analysis of the deposited data

How the results depend on the processing

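mmu-miR-532-5p, mmu-miR-501-3p and mmu-miR-532-3p stayed higher in BMDC EVs and past the threshold under all 15 alternatives. Their log2 fold changes ranged from 1.47 to 2.48, from 2.17 to 3.15 and from 1.75 to 2.71, and the highest adjusted p were 0.000234, 7.76e-05 and 0.00961. Over all tested miRNAs 169 were called, and 158 to 231 under the alternatives. Without a count filter 4 members were called, miR-188-5p being the fourth. That arm entered the unfiltered fit only through its few BMDC EV counts, so its call adds no support. Scaling by library size alone raised the median log2 fold change of all tested miRNAs by 0.455. The ratio of the summed members was 4.72 with TMM scaling and 6.26 to 6.74 when single libraries were left out.

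The usage of miR-532-3p within its hairpin ranged from -0.20 to 0.72 when single libraries were left out, and turned negative without colon EV replicate 1. Its difference from its cluster ranged from -0.33 to 0.48 and was -0.0222 with the replicate block. Neither was called in any alternative, and the cause of the sign changes was not tested. No pairing by replicate number was seen. The correlations of same-numbered libraries were -0.126, -0.0480 and -0.125, and 0 of 6 libraries correlated best with their own number. With 3 pairs from unlike sources, these values cannot tell whether any preparations shared an animal or a batch. With the replicate block 3 members and 164 miRNAs were called. At this depth, members with fewer than 10 counts set limits more than levels.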
